A study of Mus musculus with 6 samples.

Results

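The protein kinase C (PKC) and protein kinase D (PKD) isoforms described here are 10 genes, taken by symbol from the 19285 genes with values in a table of gene expression in testicular peritubular myoid cells. Peritubular myoid cells are the smooth-muscle-like cells that wrap the seminiferous tubules and contract them. The cultures were primary cells of C57BL/6J mice, grown in medium with fetal bovine serum. Total RNA was sequenced from 3 libraries of untreated cells and from 3 libraries of cells given 50 nM endothelin-1 (ET-1), a peptide that contracts smooth muscle, for 5 min. Nothing in the labels tells if replicate libraries stem from different mice or cultures, and p-values therefore cover the spread among libraries, possibly technical, and no more.

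PKC enzymes are serine/threonine kinases that act downstream of receptors coupled to the G protein Gq, such as the endothelin receptors. Gq activates phospholipase C-beta, which makes diacylglycerol and releases calcium, and conventional PKC isoforms need both, the calcium-independent isoforms need diacylglycerol only, and atypical isoforms respond to neither. PKD enzymes bind diacylglycerol and are phosphorylated by diacylglycerol-only PKC isoforms, and in smooth muscle PKC phosphorylates an inhibitor of myosin phosphatase (encoded by Ppp1r14a), which favours contraction. The 10 genes are the conventional Prkca and Prkcb, the diacylglycerol-only Prkcd, Prkce, Prkch and Prkcq, the atypical Prkci and Prkcz, and Prkd1 and Prkd2. The table also holds the third PKD gene, Prkd3, whose values are given beside those of Prkd2.

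Expression is given in FPKM, a count of fragments corrected for transcript length and library depth, so levels of different genes can be compared. Judged from the spacing of low FPKM values, a library held 17610000 to 18320000 fragments. The labelled cell type was checked with 10 smooth muscle markers, all of them measured, whose summed level was 4020 to 4674 FPKM in the untreated and 4651 to 6521 FPKM in the ET-1 libraries. RNA of other testicular cells was present too: Insl3, a hormone of Leydig cells, stood at 2040 to 4532 FPKM in the untreated and 614 to 2096 FPKM in the ET-1 libraries. Untreated libraries 1 and 3 were the closest pair within a group (Pearson correlation 0.996 on log2(FPKM + 1), against 0.973 to 0.983 for the others). In bulk RNA, fewer cells of a type and less RNA per cell cannot be told apart.

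Upstream sequences are shown for Prkcd, Prkci and Prkd1, the members whose differences between the groups the results turn on. They are the 250 bases before the start site in RefSeq (GRCm38.p6, the mm10 build of the deposited coordinates), 5′ to 3′ on the strand of the gene, and the start site of Prkd1 in RefSeq lies 26 bases from the gene end in the deposited table. Capitals mark matches, on either strand, to the GC box (GGGCGG) or the TATA box (TATAAA), and neighbouring GC boxes of Prkd1 share a base.
Prkcd, chr14:30626209-30626458, minus strand: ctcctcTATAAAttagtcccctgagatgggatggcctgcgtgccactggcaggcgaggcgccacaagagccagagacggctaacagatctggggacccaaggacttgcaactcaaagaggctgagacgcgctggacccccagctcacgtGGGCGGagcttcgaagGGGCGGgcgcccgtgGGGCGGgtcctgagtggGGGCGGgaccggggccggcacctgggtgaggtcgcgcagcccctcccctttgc
Prkci, chr3:30995521-30995770, plus strand: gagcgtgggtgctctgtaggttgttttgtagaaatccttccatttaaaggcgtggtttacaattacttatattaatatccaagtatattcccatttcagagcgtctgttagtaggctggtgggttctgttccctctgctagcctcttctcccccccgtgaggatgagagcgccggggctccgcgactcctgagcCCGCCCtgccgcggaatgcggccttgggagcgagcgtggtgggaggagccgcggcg
Prkd1, chr12:50649250-50649499, minus strand: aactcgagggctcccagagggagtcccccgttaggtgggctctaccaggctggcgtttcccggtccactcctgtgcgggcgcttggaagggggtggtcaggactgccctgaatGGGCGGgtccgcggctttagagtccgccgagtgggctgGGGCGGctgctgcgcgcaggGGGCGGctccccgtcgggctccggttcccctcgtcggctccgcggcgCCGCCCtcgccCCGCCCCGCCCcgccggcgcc

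The Prkcd window held 4 GC boxes and, near its far end, a TATA box, the Prkci window 1 GC box and the Prkd1 window 6. The GC content was 67.6% for Prkcd, 56.4% for Prkci and 75.6% for Prkd1, against a median of 52.4% over all 32851 promoter windows of the same length. A window was found for 8 of the 10 members, and all 8 windows held a GC box, which 32.7% of all windows do. The TATA box stands in 12.4% of all windows. None of the 8 windows held the AP-1 site TGACTCA (4.46% of all windows) or the cAMP response element TGACGTCA (1.55%), each searched on both strands. A match or its absence describes these letters in this window only.

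Prkcd and Prkci made up most of the PKC and PKD transcript in these cells, and their order differed between the groups. Prkci, the polarity kinase that works with Par proteins, had the highest mean of untreated cells at 22.8 ± 5.5 FPKM (SD, n = 3), followed by Prkcd, an isoform with roles in cell death and immune signalling, at 17.5 ± 2.0 FPKM (n = 3). In the untreated libraries the ranges of these genes overlapped, 18.60 to 28.97 FPKM for Prkci and 15.24 to 18.94 FPKM for Prkcd. In the ET-1 libraries Prkcd was first at 27.4 ± 3.8 FPKM and Prkci second at 16.4 ± 3.7 FPKM (n = 3 each), and the ranges, 23.77 to 31.31 and 14.02 to 20.64 FPKM, did not overlap. By mean over the 6 libraries, 68.6% of the 11664 tested genes lay below Prkcd and 65.2% below Prkci.

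The middle of the order was held by both PKD genes, Prkca and Prkce. In untreated cells Prkd1 followed at 7.63 ± 1.42 FPKM, above every value of Prkd2 (4.28 ± 0.55 FPKM). The ranges of Prkd2 and Prkca (3.11 ± 0.78 FPKM) overlapped, as did those of Prkca and Prkce (2.49 ± 0.62 FPKM, n = 3 each). In the ET-1 libraries the ranges of Prkd1 (5.20 ± 0.42 FPKM) and Prkd2 (5.07 ± 0.40 FPKM) overlapped, and Prkca (3.49 ± 0.17 FPKM) lay below both and above Prkce (2.42 ± 0.68 FPKM, n = 3 each). The last 4 places went to Prkch, Prkcb, Prkcz and Prkcq in both groups. In the untreated libraries the ranges of Prkch and Prkcb overlapped, as did those of Prkcb and Prkcz. In the ET-1 libraries Prkcb stood clear of the other 3, and the ranges of Prkcz and Prkch overlapped.

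**Figure D1:**
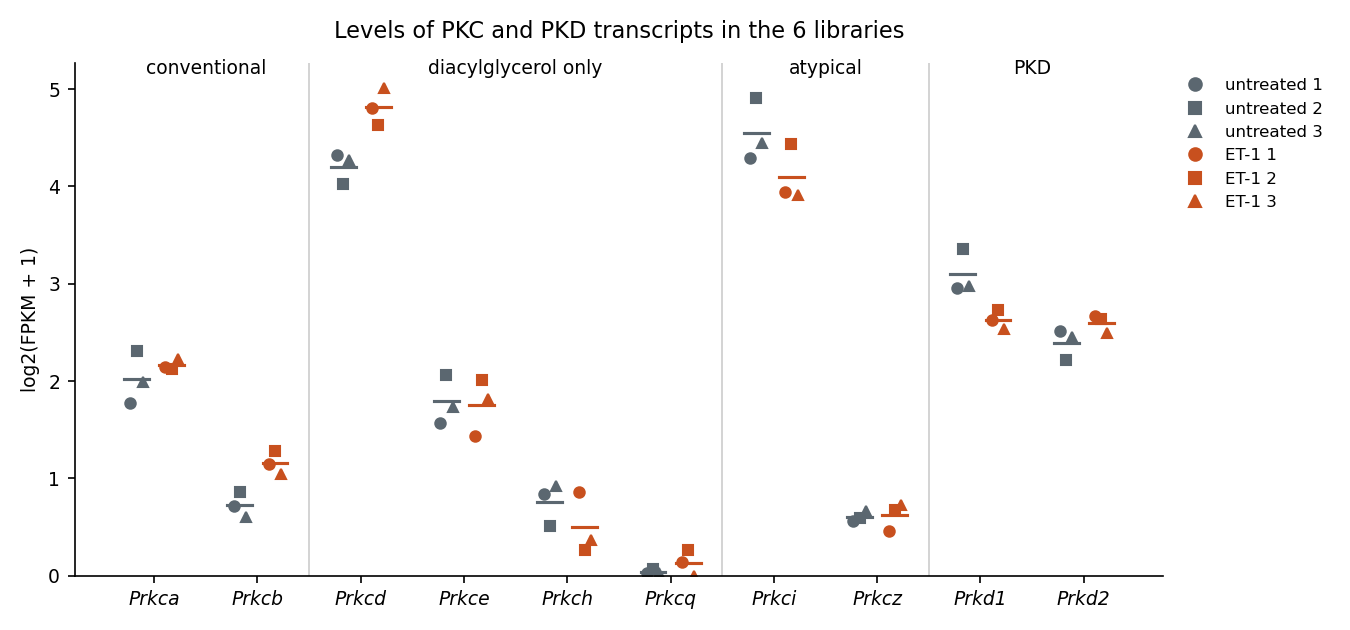
Levels of the 10 genes as log2(FPKM + 1), with a point per library, its shape giving the library number, and a bar at the mean of each group of 3. Prkcd and Prkci lie highest in all 6 libraries, and Prkcb and Prkcd are the genes whose ET-1 points all lie above the untreated ones.

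No member passed the test of ET-1 against untreated cells in limma with the group as the only term. A gene was tested where it reached 1 FPKM in at least 3 libraries, the test was run on log2(FPKM + 1), and the threshold was a Benjamini-Hochberg adjusted p of 0.05 over all 11664 tested genes. Of the 10 members 7 were tested and 0 passed, where 3.46% of all tested genes did (1.57% higher and 1.89% lower after ET-1). At an unadjusted p under 0.05 the count was 3 (Prkcd, Prkcb and Prkd1), with 24.1% over all tested genes. With the replicate number of the labels as a block 2 passed, Prkcd rising and Prkci falling, where 9.45% of all tested genes did (4.26% rising and 5.19% falling). Prkcb was tested only because all 3 ET-1 libraries reached 1 FPKM, while no untreated one did, so its difference is in part fixed by the filter and it is not counted as support.

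Prkcd (chr14:30595354-30626208) had 18.94, 15.24 and 18.25 FPKM in untreated and 26.97, 23.77 and 31.31 FPKM in ET-1 libraries 1 to 3. All 3 ET-1 libraries lay above all untreated ones, and library 2 was the lowest of its group in both. The ratio of mean FPKM was 1.56, and the log2 difference 0.61 ± 0.14 (SE, 95% interval 0.29 to 0.94; limma adjusted p = 0.0603). Within the libraries of the same number the ET-1 value was 1.42, 1.56 and 1.72 times the untreated one. With the replicate block the difference passed (limma adjusted p = 0.0256), while over the 15 alternatives tried the adjusted p ran from 0.0256 to 0.225, with 0.186 when untreated libraries 1 and 3, the closest pair, were averaged. Groups that do not overlap were found in 30.9% of all tested genes, in 13.2% with ET-1 higher.

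Prkci (chr3:30995771-31052740) stood at 18.60, 28.97 and 20.83 FPKM in untreated and at 14.42, 20.64 and 14.02 FPKM in ET-1 libraries 1 to 3. The groups overlapped, because ET-1 library 2 lay above untreated library 1, and library 2 was the highest of its group in both. The log2 difference was -0.45 ± 0.21 (SE, 95% interval -0.94 to 0.04; limma adjusted p = 0.239). Within the libraries of the same number the ET-1 value was 0.775, 0.712 and 0.673 times the untreated one. With the replicate block the gene fell, with a standard error of 0.10 (95% interval -0.70 to -0.21; limma adjusted p = 0.0469), and over the 15 alternatives the adjusted p ran from 0.0469 to 0.450, the block being the only one under which it passed.

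The other atypical isoform, Prkcz, was scarce and close to level. It stood at 0.48, 0.51 and 0.58 FPKM in untreated and at 0.37, 0.60 and 0.65 FPKM in ET-1 libraries 1 to 3, and the ET-1 values enclosed the untreated ones. It did not reach 1 FPKM in any library. Under a filter on a mean of at least 0.5 FPKM, added after the data were seen, its log2 difference was 0.01 ± 0.12 (SE, 95% interval -0.27 to 0.29; limma adjusted p = 0.966).

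**Figure D2:**
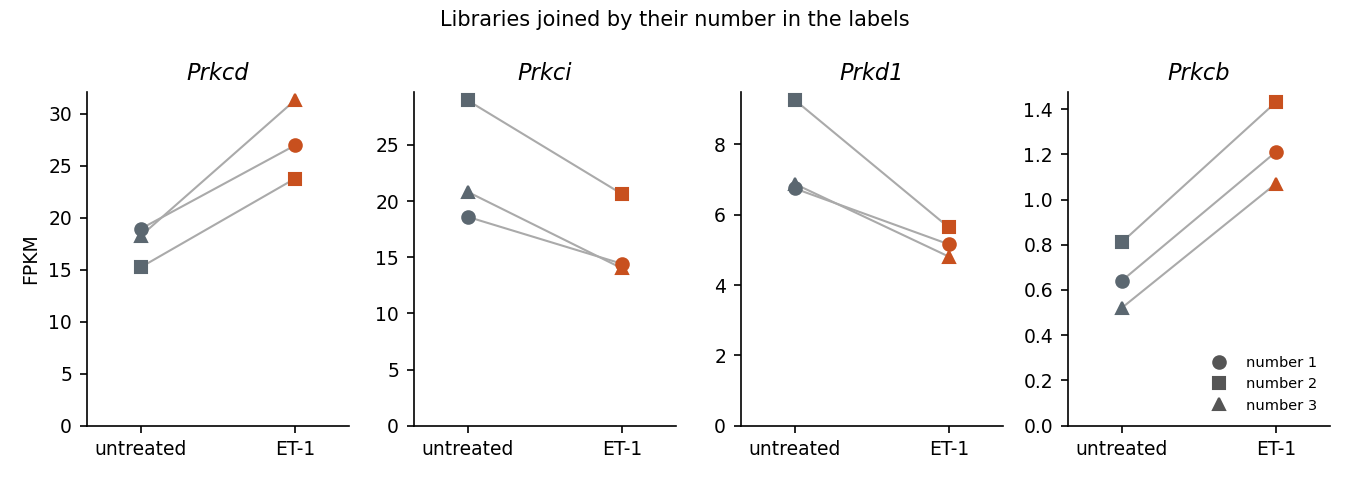
FPKM of Prkcd, Prkci, Prkd1 and Prkcb in untreated and ET-1 libraries, with lines joining libraries of the same number. Every line of Prkcd and Prkcb goes up and every line of Prkci and Prkd1 goes down, and the libraries numbered 2 are highest in both groups for Prkci, Prkd1 and Prkcb and lowest for Prkcd.

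The ratio of Prkcd to Prkci does not depend on how a library is scaled. It was 1.02, 0.526 and 0.876 in untreated libraries 1 to 3 and 1.87, 1.15 and 2.23 in ET-1 libraries 1 to 3. The groups did not overlap, although ET-1 library 2 and untreated library 1 were close. The pair was picked after its values were seen, so the ratio is given without a test.

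As shares of the summed FPKM of the 10 genes, Prkcd took 29.6 ± 5.8% in untreated and 44.0 ± 6.4% in ET-1 libraries, and Prkci 37.9 ± 5.4% and 26.2 ± 5.3% (SD, n = 3 each). Prkd1 took 12.7 ± 1.2% and 8.37 ± 0.64% (n = 3 each). The sum itself was 55.3 to 66.05 FPKM in the untreated libraries and 59.5 to 64.1 FPKM in the ET-1 libraries, so the ET-1 range lay within the untreated one. By class, the diacylglycerol-only isoforms summed to 18.9 to 21.7 FPKM in untreated and 27.2 to 34.1 FPKM in ET-1 libraries, without overlap. Prkcd made up most of that sum, and the means of Prkce and Prkch were not higher after ET-1. Prkd1 and Prkd2 summed to 11.4 to 12.9 and 9.43 to 10.9 FPKM, also without overlap but lower after ET-1. That sum leaves out Prkd3, which was higher after ET-1, at 6.45 to 7.15 FPKM in untreated and 7.54 to 8.32 FPKM in ET-1 libraries. The atypical isoforms summed to 19.1 to 29.5 and 14.7 to 21.2 FPKM, with overlap, and the conventional isoforms to 3.06 to 4.76 and 4.62 to 4.80 FPKM, which overlapped as well.

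**Figure D3:**
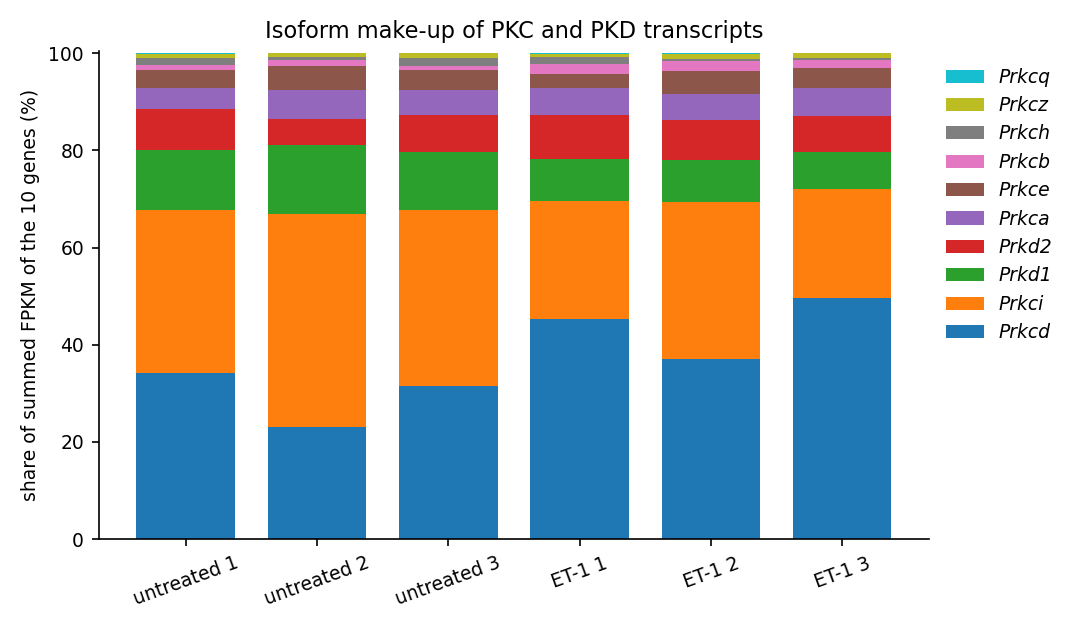
Share of each gene, in percent, of the summed FPKM of the 10 genes, as stacked bars for the 6 libraries. Prkcd takes 23.1% to 34.2% in the untreated and 37.1% to 49.7% in the ET-1 libraries, and Prkci 33.6% to 43.9% and 22.3% to 32.2%.

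Among the conventional isoforms, which need both calcium and diacylglycerol, Prkca was the more abundant. Prkca (chr11:107933387-108343888), a widely expressed isoform studied in muscle contraction and cell growth, stood at 2.42, 3.95 and 2.97 FPKM in untreated and at 3.41, 3.37 and 3.69 FPKM in ET-1 libraries 1 to 3. The ET-1 values lay inside the untreated range. Its log2 difference was 0.14 ± 0.16 (SE, 95% interval -0.23 to 0.51; limma adjusted p = 0.611), and it ran from 0.02 without untreated library 1 to 0.28 without untreated library 2.

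Prkcb (chr7:122289125-122634402), known for signalling in B cells and myeloid cells, stood at 0.64, 0.81 and 0.52 FPKM in untreated and at 1.21, 1.43 and 1.07 FPKM in ET-1 libraries 1 to 3. These values rest on 84 to 222 estimated fragments, and the groups did not overlap. The ratio of means was 1.88 and the log2 difference 0.43 ± 0.13 (SE, 95% interval 0.14 to 0.73; limma adjusted p = 0.103). With the filter on the mean over all libraries, which does not favour either group, the limma adjusted p was 0.104, and it was 0.0772 with the number as a block. The ratio of Prkca to Prkcb was 3.78, 4.88 and 5.71 in untreated and 2.82, 2.36 and 3.45 in ET-1 libraries 1 to 3, without overlap. The groups of Prkca itself overlapped, so this separation rests on Prkcb. It is given without a test and is not counted as support.

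Macrophage markers were summed beside Prkcb and Prkcd. The summed level of 13 macrophage markers was 137.7 to 223.3 FPKM in the untreated and 336.2 to 759.4 FPKM in the ET-1 libraries. Of the 12 tested, 1 (Lyz2) rose in limma, where 1.57% of all tested genes did, and with the replicate block 5 rose and 1 (Cd14) fell, against 4.26% and 5.19%. By mean log2 value 11 were higher, against 45.7% of all tested genes, and 7 had groups that did not overlap with ET-1 higher, against 13.2%. Both counts include Adgre1 and Itgam, which were tested only because all 3 ET-1 libraries reached 1 FPKM. No untreated library did, so their differences are in part fixed by the filter and are not counted as support. No macrophage marker was at 0 in all libraries. Among the ET-1 libraries the macrophage sum was highest in library 1, Prkcb in library 2 and Prkcd in library 3. Among the untreated libraries the sum was highest in library 2, where Prkcb was highest and Prkcd lowest. Of 6 B cell markers none reached 1 FPKM in any library, their summed level was 0.25 to 0.61 FPKM in the untreated and 0.25 to 0.37 FPKM in the ET-1 libraries, and Ms4a1 was listed at 0 in all 6. The part of macrophage RNA in the levels of Prkcb and Prkcd was not tested.

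Of the other isoforms that respond to diacylglycerol without calcium, Prkce was the only one tested. Prkce (chr17:86167785-86657919), an isoform that binds actin and supports growth signals, stood at 1.97, 3.18 and 2.33 FPKM in untreated and at 1.70, 3.04 and 2.53 FPKM in ET-1 libraries 1 to 3. The groups overlapped widely, with library 2 the highest in both. The log2 difference was -0.03 ± 0.20 (SE, 95% interval -0.50 to 0.43; limma adjusted p = 0.938).

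Prkch and Prkcq were near the lower end of detection. Prkch (chr12:73584796-73778185), found in epithelia, endothelium and lymphocytes, stood at 0.79, 0.42 and 0.90 FPKM in untreated and at 0.81, 0.20 and 0.29 FPKM in ET-1 libraries 1 to 3, which is 13 to 60 estimated fragments. ET-1 library 1 lay within the untreated range, and under the filter on a mean of 0.5 FPKM the log2 difference was -0.26 ± 0.20 (SE; limma adjusted p = 0.456). The summed level of 11 endothelial markers was 61.9 to 98.95 FPKM in the untreated and 27.4 to 48.05 FPKM in the ET-1 libraries, and none of them was at 0 in all libraries. Of the 6 tested, 4 fell in limma and 5 with the replicate block, where 1.89% and 5.19% of all tested genes did. The gene added by the block, Kdr, was tested only because all 3 untreated libraries reached 1 FPKM. Its fall is therefore in part fixed by the filter and is not counted as support. The remaining tested marker, Cdh5, had a higher mean after ET-1 (19.4 against 15.9 FPKM). The part of endothelial RNA in Prkch was not tested.

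Prkcq, the isoform of the T cell receptor pathway, stood at 0.02, 0.05 and 0.02 FPKM in untreated and at 0.10, 0.20 and 0 FPKM in ET-1 libraries 1 to 3, on at most 12 estimated fragments. It was listed at 0 in ET-1 library 3, and no order between the groups can be read from such values. The 10 T cell markers summed to 1.26 to 1.67 FPKM in the untreated and 0.88 to 1.58 FPKM in the ET-1 libraries, none passed the filter, and Cd2 was listed at 0 in all 6 libraries.

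Prkd1 and Prkd2, whose products act at the Golgi and on histone deacetylases, stood closer together in the ET-1 libraries. Prkd3 stood above both there, at 7.54 to 8.32 FPKM. Prkd1 (chr12:50341231-50649223) was at 6.75, 9.27 and 6.88 FPKM in untreated and at 5.16, 5.64 and 4.81 FPKM in ET-1 libraries 1 to 3. All ET-1 values lay below all untreated ones, as in 17.6% of tested genes, and library 2 was the highest of each group. The log2 difference was -0.47 ± 0.14 (SE, 95% interval -0.81 to -0.12; limma adjusted p = 0.116, or 0.0629 when the number is a block).

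Markers of Leydig cells are set beside Prkci and Prkd1, whose means were lower after ET-1. The 8 markers summed to 2335 to 4960 FPKM in the untreated and 828 to 2422 FPKM in the ET-1 libraries, an overlap of untreated library 2 with ET-1 library 3. The sum was lowest in library 2 of each group, where Prkci and Prkd1 were highest. Of the 4 tested, none passed limma with the group only, and with the replicate block Insl3 and Cyp11a1, the enzyme that starts steroid synthesis, fell (limma adjusted p = 0.0101 and 0.00945) while Star, which carries cholesterol into mitochondria, rose (limma adjusted p = 0.0463). None of the 8 was at 0 in all libraries, and the part of Leydig cell RNA in Prkci and Prkd1 was not tested.

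Prkd2 (chr7:16842902-16870461) was at 4.70, 3.65 and 4.48 FPKM in untreated and at 5.37, 5.23 and 4.62 FPKM in ET-1 libraries 1 to 3. The groups overlapped only through ET-1 library 3, which lay below untreated library 1. The log2 difference was 0.21 ± 0.13 (SE, 95% interval -0.09 to 0.51; limma adjusted p = 0.366), and it ran from 0.12 to 0.26 when each library was left out. The ratio of Prkd2 to Prkd1 was 0.696, 0.394 and 0.651 in untreated and 1.04, 0.927 and 0.960 in ET-1 libraries 1 to 3, without overlap, and was chosen after its values were seen. Prkd3 stood at 6.45, 6.71 and 7.15 FPKM in untreated and at 8.27, 8.32 and 7.54 FPKM in ET-1 libraries 1 to 3, so its ET-1 values lay above the untreated ones (log2 difference 0.22 ± 0.10, SE; limma adjusted p = 0.246).

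**Figure D4:**
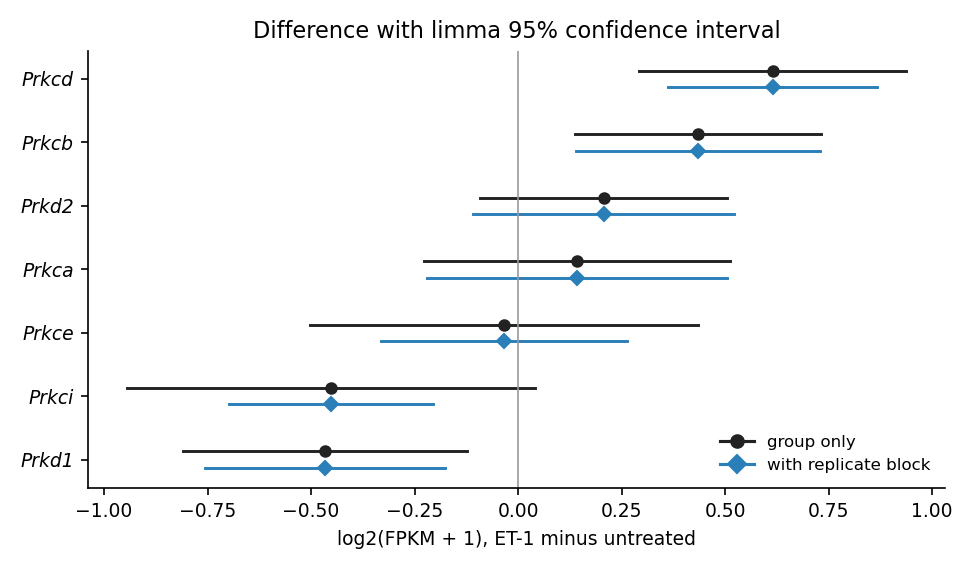
Difference in log2(FPKM + 1), ET-1 minus untreated, for the 7 tested genes, with limma's 95% confidence interval from the fit with the group only (black) and with the replicate block (blue). The interval of Prkci reaches from -0.94 to 0.04 without the block and from -0.70 to -0.21 with it.

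Library 2 stood apart from libraries 1 and 3 in several members in the same way in both groups. It was the highest of its group in both groups for Prkcb, Prkce, Prkci and Prkd1, and the lowest in both for Prkcd. Prkch was lowest in library 2 of both groups as well, but its ET-1 place rests on 0.20 against 0.29 FPKM. For Prkca library 2 was the highest of the untreated and the lowest of the ET-1 libraries. Prkd2 was lowest in untreated library 2 only, and Prkcz held the middle place in both. The share of all tested genes with such places was not counted, so the places are a description only. Over all tested genes, deviations from the group mean correlated at 0.523 between the libraries numbered 2. Prkcq, also highest in library 2 of both groups, is too scarce to be ordered. The summed level of 11 Sertoli cell markers was also highest in library 2 of each group. It was 2573 FPKM against 1054 and 1325 in the untreated libraries, and 6571 FPKM against 3044 and 3049 in the ET-1 libraries. Clu made up most of that sum in every library. It stood at 840, 1879 and 1014 FPKM in untreated and at 2668, 5624 and 2579 FPKM in ET-1 libraries 1 to 3. By mean log2 value 8 of the 10 tested markers were higher after ET-1 and 2 lower, against 45.7% and 54.3% of all tested genes. Groups did not overlap in 2 of them (Aard and Clu), with ET-1 higher, against 13.2%. Of the 10 Sertoli markers tested, 1 (Aard) rose, where 1.57% of all tested genes did, and 3 (Aard, Clu and Dhh) rose with the replicate block, against 4.26%. None was at 0 in all libraries. The part of Sertoli cell RNA in these members was not tested.

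The calls in the authors' deposited table were far more numerous. There, 5 members had a positive and 3 a negative log2 value with a q-value under 0.05, and 66.1% of all genes with a q-value passed there, 32.8% with a positive and 33.4% with a negative value. In the authors' deposited table Prkcd had a log2 value of 0.65 (q = 3.19e-74), Prkci -0.48 (q = 3.5e-59) and Prkcb 0.92 (q = 6.52e-19). The authors' deposited table gave Prkce (q = 0.274) and Prkcz (q = 0.356) no call. The column header names DEGseq, and the sources used here do not say how replicates entered it.

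Genes around PKC and PKD were taken from 6 lists of 86 symbols, of which 83 were found with values and 62 were tested. None passed limma with the group only, against 3.46% of all tested genes, and 12 had an unadjusted p under 0.05, against 24.1%. In log2 difference 35 lay above and 27 below 0, against 45.7% and 54.3% of all tested genes, with a median log2 difference of 0.06, against -0.03 over all tested genes. Groups did not overlap in 9 genes with ET-1 higher and in 5 with ET-1 lower. Among all tested genes the shares were 13.2% and 17.6%. With the replicate block 3 of the 62 rose (Plcd1, Sqstm1 and Marcksl1) and none fell. Of all tested genes 4.26% rose and 5.19% fell, 9.45% in either direction. The count that rose stood near its share of all tested genes, while the total stood below. Neither was tested against these shares.

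Upstream, 10 of 16 genes of Gq and phospholipase C were tested, with a median log2 difference of 0.22. Plcd1, a phospholipase C of the delta class, stood at 21.03, 16.04 and 18.19 FPKM in untreated and at 35.38, 34.07 and 22.52 FPKM in ET-1 libraries 1 to 3. The groups did not overlap, and the gene passed with the block (limma adjusted p = 0.0956 without and 0.0483 with it). The phospholipase C-beta genes of the classical Gq route, Plcb3 (11.78 to 19.17 FPKM) and Plcb4 (5.78 to 9.42 FPKM over the 6 libraries), had overlapping groups. The 5 tested diacylglycerol kinases, which remove diacylglycerol, had a median of -0.13, and the one with the smallest p was Dgkd (log2 difference -0.13 ± 0.11, SE; limma adjusted p = 0.521). Of 5 tested genes from other families with diacylglycerol-binding members, the smallest p was that of Rasgrp2, an activator of Rap proteins (-0.22 ± 0.21, SE; limma adjusted p = 0.569).

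Among 19 tested genes for priming, scaffolds and shutdown of PKC, 9 were higher and 10 lower. Sqstm1, which encodes the scaffold p62 that binds atypical PKC, stood at 434.0, 340.7 and 385.3 FPKM in untreated and at 694.2, 545.0 and 1003 FPKM in ET-1 libraries 1 to 3, without overlap (limma adjusted p = 0.0792, and 0.0308 with the block). Of the partners of atypical PKC in cell polarity, Pard6a was at 4.60 to 5.72 FPKM in untreated and 6.53 to 8.71 FPKM in ET-1 libraries without overlap (limma adjusted p = 0.131), whereas Pard6b ranged from 9.09 to 29.13 and from 4.92 to 16.53 FPKM with overlap. These Pard6 genes were named after their values were seen. The kinase that primes PKC, Pdpk1, was at 6.48 to 6.76 FPKM in untreated and 5.01 to 6.47 FPKM in ET-1 libraries, just short of overlapping (limma adjusted p = 0.327).

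Among 19 tested genes for PKC and PKD substrates, the smallest p was that of Marcksl1, an actin-binding relative of the classical substrate Marcks. It stood at 94.8, 128.2 and 101.7 FPKM in untreated and at 154.3, 256.6 and 258.6 FPKM in ET-1 libraries 1 to 3, without overlap (log2 difference 1.01 ± 0.23, SE; limma adjusted p = 0.0617, and 0.0159 with the block). Marcks itself was at 28.7 to 37.3 FPKM in untreated and 40.8 to 58.8 FPKM in ET-1 libraries (limma adjusted p = 0.116). Ppp1r14a, the myosin phosphatase inhibitor, was at 104.9 to 122.6 FPKM in untreated and 55.2 to 91.5 FPKM in ET-1 libraries (limma adjusted p = 0.119, and 0.0521 with the block). The groups did not overlap in Marcks, where ET-1 was higher, nor in Ppp1r14a, where ET-1 was lower, and both genes were named after their values were seen.

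**Figure D5:**
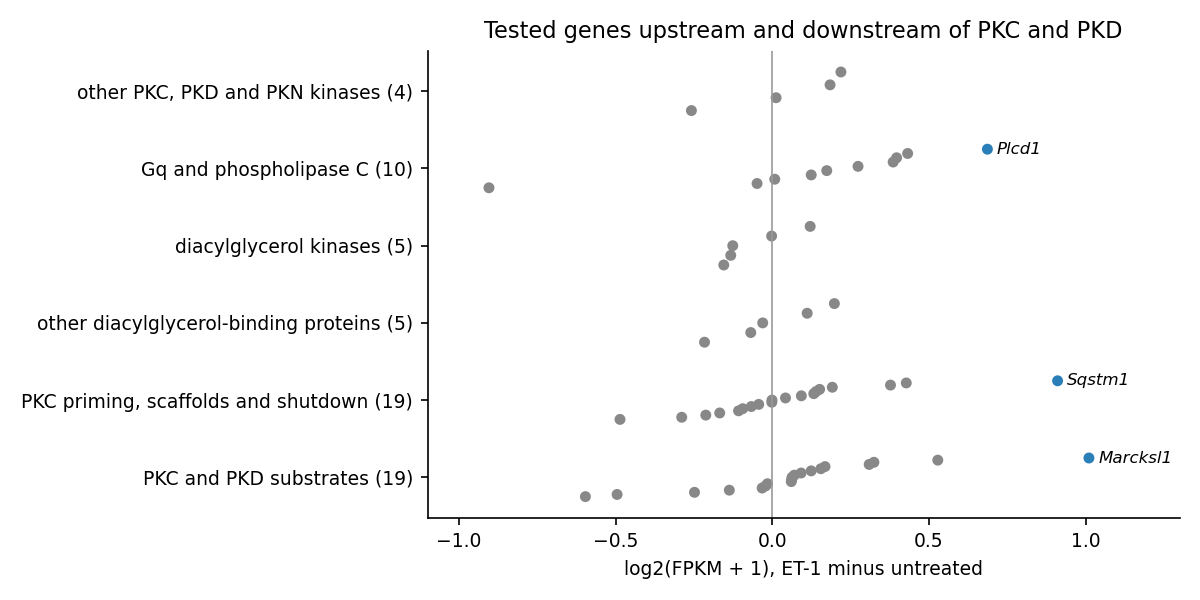
Difference in log2(FPKM + 1), ET-1 minus untreated, of the 62 tested pathway genes by list, with the number tested in brackets. Blue points with names are the 3 genes past an adjusted p of 0.05 with the replicate block, and no point passed without it.

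The genes with the profile most like that of Prkcd and of Prkcb, the members with the smallest p, were found by the root mean square distance of log2(FPKM + 1) over the 6 libraries after centring each gene. For Prkcd they were Etv4 (distance 0.0455), Adcy7 (0.0537) and Emx2 (0.0604). Etv4, an ETS transcription factor, stood at 9.43, 7.35 and 8.94 FPKM in untreated and at 12.35, 11.95 and 15.68 FPKM in ET-1 libraries 1 to 3. For Prkcb, whose difference is in part fixed by the filter, they were Clmp (0.0390), Stx5a (0.0555) and Kctd21 (0.0596). Prkcb is not counted as support here either. With 11664 genes and 6 libraries, the likeness is a description only.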

How the data were processed

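RNA from 3 untreated and 3 ET-1 libraries was compared, with groups and numbers from the labels. RSEM 1.2.12, HISAT2 2.0.4 and Bowtie2 2.2.5 are named, without their roles, per the submitters' processing notes, which also give mm10 as the build. The authors deposited FPKM per library, rounded to 2 decimals, and their own log2 fold change, p-value and q-value (DEGseq per the file headers). Of 22135 rows, 19285 had values.

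Log2(FPKM + 1) was tested two-sided in R 4.3.3 with limma 3.58.1, whose empirical Bayes step used a mean-variance trend, for 11664 genes with at least 1 FPKM in at least 3 libraries, with Benjamini-Hochberg adjustment over all of them. The scale understates the change of low genes. The limma step was tested on simulated data. An exact permutation test of 3 against 3 could not go below p = 0.1, so none is given. Depth was estimated from values of 0.05 to 0.6 FPKM in single-transcript genes of 300 to 1200 bases, of which 82.9% to 88.3% lay within 0.15 of a whole fragment, so fragment numbers are approximate and no count test was run.

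Deviations from the group means correlated at 0.228, 0.523 and 0.202 for numbers 1, 2 and 3, all above 0.1, so values with the number as a block are printed where they change a call. They are also printed for Prkcb, Prkd1 and Ppp1r14a, whose calls did not change. The labels do not say what a number stands for, and only 2 of 6 libraries correlated best with their own number.

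The members and lists were chosen with earlier results of these data known. Named genes are all members, for each list up to 3 passing genes a direction, failing that the gene of smallest p, Prkd3, and the 3 nearest profiles of the 2 members with the smallest p. Other genes were named after their values were seen, and a gene that the rule names is not reported here. The alternatives were other pseudocounts, filters and scalings, the block, no variance trend, an averaged pair and each library left out.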

Additional observations from a re-analysis of the deposited data

How the results depend on the processing

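The count of all tested genes past the threshold, 404 with the group only, was 193 without a filter, 1102 with the replicate block and 9 with untreated libraries 1 and 3 averaged, and ran from 0 (without untreated library 3) to 797 (without ET-1 library 3) when each library was left out. The count of members past the threshold was 0 under every alternative but the replicate block, where it was 2, and 0 to 0 when each library was left out. Pathway genes past it were 3 with the replicate block, and 0 to 1 when each library was left out (Marcksl1 without ET-1 library 1, Plcd1 without ET-1 library 3). Prkcd kept a positive and Prkci a negative difference under all 15 alternatives, with log2 values of 0.52 to 0.71 and -0.62 to -0.27. Their limma adjusted p ran from 0.0256 to 0.225 and from 0.0469 to 0.450. The block, the other filters and the fit without a variance trend left both estimates unchanged, so no sign could turn there. The groups of Prkcd did not overlap, so other pseudocounts and left-out libraries could not turn its sign either. The difference of Prkce ran from -0.16 to 0.13 when each library was left out, and its sign turned with equal medians (0.0084), without untreated library 2 (0.10) and without ET-1 library 1 (0.13). The cause of these shifts was not tested. Low depth limits Prkch, Prkcz and Prkcq, which have at most 60, 51 and 12 estimated fragments in a library.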

Other observations

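Several pathway genes beside the members stood out in the libraries numbered 2, and all were chosen after their values were seen. Unc13d, a protein of vesicle release, was at 16.43 FPKM in untreated library 2 against 8.57 and 8.97 in libraries 1 and 3, and at 20.01 FPKM in ET-1 library 2 against 9.37 and 10.52. Pard6b, a polarity partner of atypical PKC, was at 29.13 FPKM in untreated library 2 against 9.09 and 12.81, whereas ET-1 library 3 was the highest of its group at 16.53 FPKM. Gna14, a G protein subunit of the Gq class, was at 11.14 FPKM in untreated library 2 and at 1.03 to 3.82 FPKM in the other 5 libraries.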
